A study of Mus musculus with 2 samples.

Results

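Classical *Vcan* monocytes with low *Cxcl9* and *Cxcl10* were selected among the Cd45+ cells of B16-F10 melanomas by the unique molecular identifiers (UMIs) of marker genes. A cell was a member if under 10% of its UMIs came from mitochondrial genes, if it had at least 1 *Csf1r* UMI and at least 3 UMIs of *Vcan*, *Chil3* and *Hp* together, and if it had at most 2 UMIs of *C1qa*, *C1qb* and *C1qc*, at most 2 of *Ace*, *Adgre4*, *Treml4* and *Ceacam1*, at most 1 of *Ccl24* and *Mgl2* and at most 4 of *Cxcl9* and *Cxcl10*. In addition, *S100a8* and *S100a9* had to stay under 0.2%, and *Vegfa*, *Hilpda*, *Ero1l*, *Egln3* and *Bnip3* under 0.15%, of the cell's UMIs. The rule found 318 members among the 12304 cells listed, 151 in the library labelled *Irg1*+/+ and 167 in the library labelled *Irg1*-/-. The levels of all these genes in the members follow from the rule and are given as a description only.

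B16-F10 is a mouse melanoma line. *Irg1*, listed under its current symbol *Acod1*, encodes the mitochondrial enzyme that makes itaconate, and the study asked what its loss does to the immune cells of the tumor. Each mouse received 200000 tumor cells under the skin, tumors were taken on day 10, pieces of 100 mm3 from 3 mice of 1 genotype were pooled, 6000 Cd45+ cells were sorted, and 1 library was made for each genotype: wild type (*Irg1*+/+) and homozygous knockout (*Irg1*-/-). The groups have 1 library each, so there is no replicate, no test between genotypes is possible, and a difference between the libraries cannot be told apart from any other difference between the pools of mice or their preparation.

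Classical monocytes leave the bone marrow through the chemokine receptor Ccr2, circulate with high surface Ly6C and enter inflamed tissue and tumors, where they can turn into macrophages or dendritic-like cells. Nonclassical monocytes patrol the vessel wall and lose Ly6C and Ccr2. Type I interferon, read through a complex with Stat2 and Irf9, and type II interferon switch on overlapping sets of genes in these cells, and *Cxcl9* and *Cxcl10*, chemokines that attract T cells, are among the targets of the latter.

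Levels are given as CPM, the UMIs of a gene summed over the members of a library and scaled to a total of 1000000, for the library labelled *Irg1*+/+ first and the library labelled *Irg1*-/- second. The members held 643625 and 739816 UMIs outside mitochondrial genes, at medians of 4262 and 4370 UMIs and 1884 and 1907 genes per cell. Brackets hold exact 95% intervals (Poisson for UMIs, Clopper-Pearson for shares of cells, conditional binomial for ratios), which cover counting error only. In all, 36 cell barcodes were shared, and 1 and 2 members carried such a barcode, none of them a member in both.

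The label was checked against 5 markers, *Vcan*, *Chil3* and *Hp* of the rule and *Ly6c2* and *Ifitm6* outside it. *Vcan*, which encodes the matrix proteoglycan versican, had 1307 and 1360 CPM in the members and 20.7 and 29.4 CPM in lymphocytes of the same libraries (T, B and NK cells without a *Csf1r* UMI), whose level stands for free RNA. A *Vcan* UMI was present in 76.8% and 77.2% of the members, a *Chil3* UMI in 90.1% and 82.6% and a *Hp* UMI in 40.4% and 55.1%. UMIs of all 3 genes were found in 39 and 57 members, and 28 and 32 members met the minimum through 1 of the genes alone. *Ifitm6*, an interferon-induced transmembrane gene of monocytes, had 561 and 599 CPM against 38.8 and 52.2 in lymphocytes. The lysozyme gene *Lyz2* had 16219 and 15577 CPM against 1309 and 1308, and *Ccr2* had 1937 and 2133 against 536 and 581. The excess of *Vcan*, *Chil3* and *Hp* was fixed by the rule, so the name rests on the genes outside it. Because the lymphocytes were chosen without *Csf1r*, an excess over them does not tell classical monocytes from other myeloid cells. Comparisons with nonclassical monocytes and C1q macrophages are given below.

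*Ly6c2*, which encodes the surface antigen of classical monocytes, was also carried by lymphocytes (769 and 1080 CPM), at less than the members' level. Of the 14 neutrophil genes, *Ly6g*, *Ltf*, *Camp* and *Ngp* were at 0 in the members. The B cell gene *Ms4a1*, the mast cell gene *Cpa3* and all hemoglobin genes were at 0 too. The 14 neutrophil genes summed to 362 and 347 CPM, led by *Hdc* (126 and 101 CPM). This was above the sums of 75.1 and 165 CPM in lymphocytes. Summed T cell genes had 831 and 920.5 CPM, which compares with 7325 and 5584 CPM in the lymphocytes, and their most abundant member was *Trbc2*. A few members carried much of that: 1 member held 38% of the *Trbc2* UMIs in the library labelled *Irg1*-/-. Doublets were not removed.

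**Figure D1:**
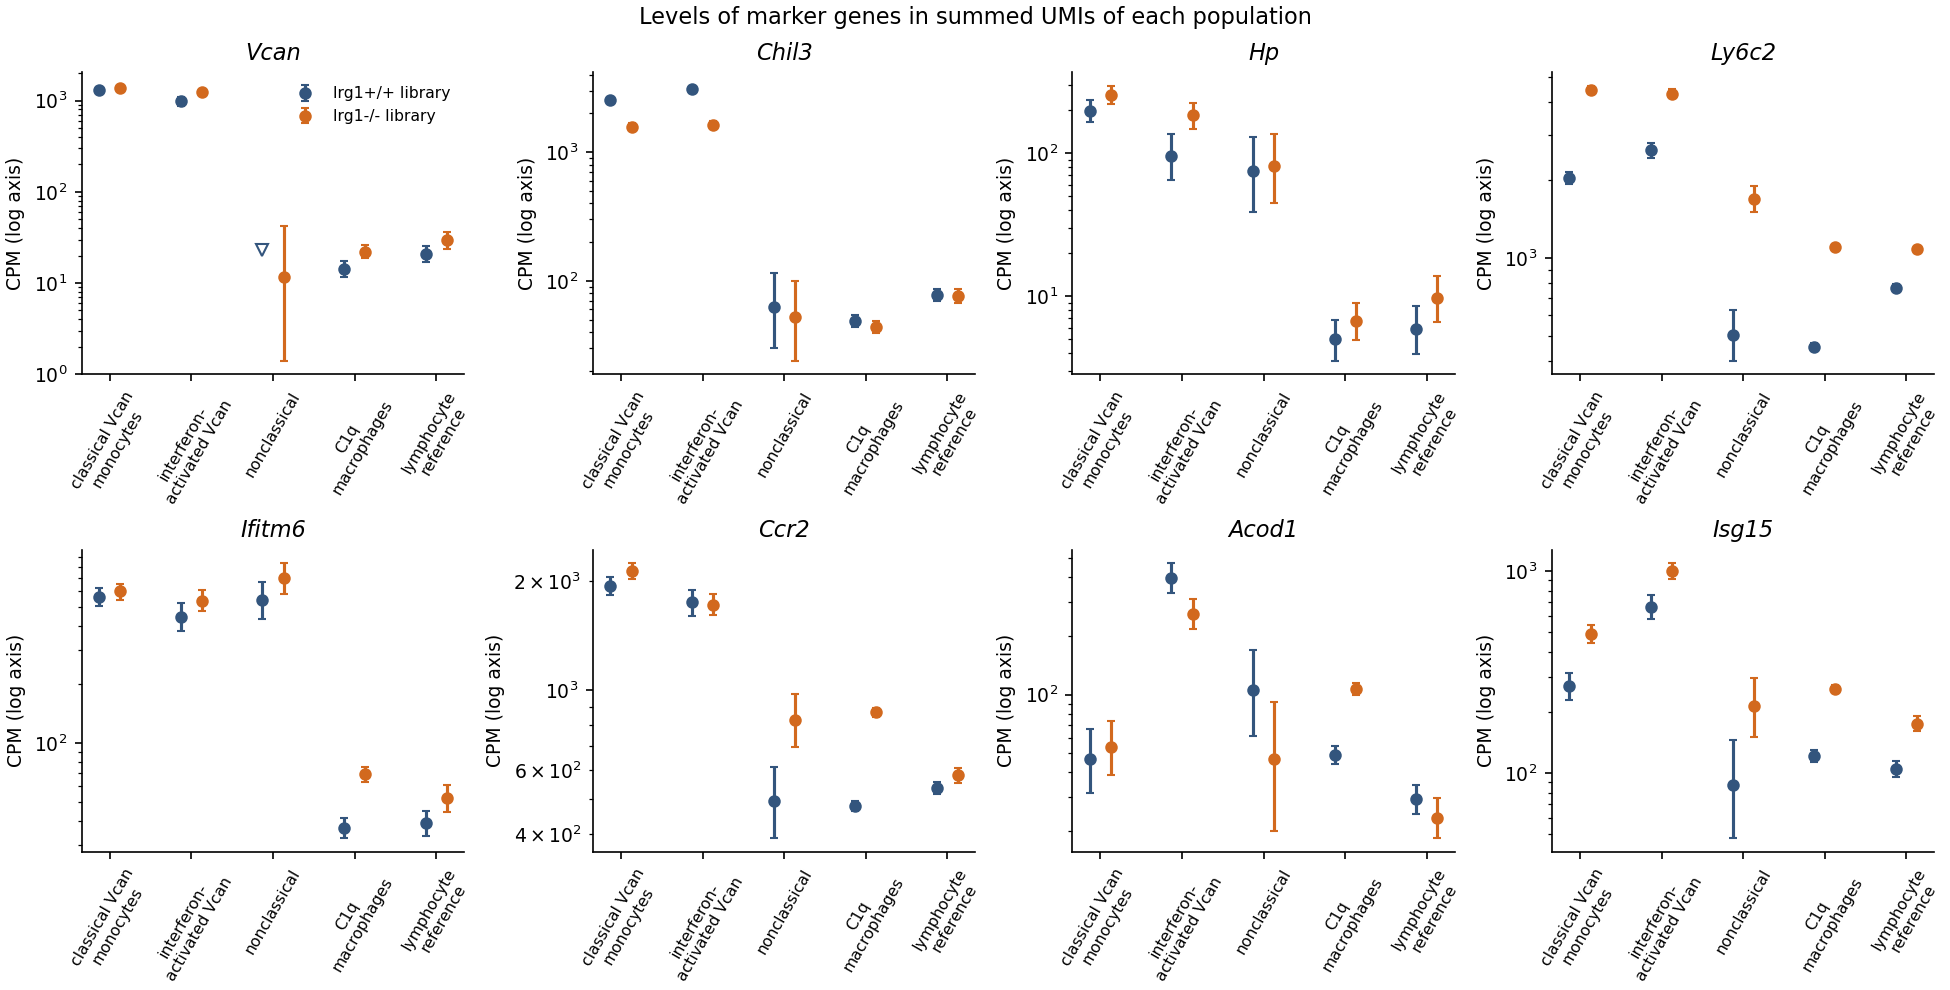
CPM (log axes) of 8 genes in 5 populations of both libraries, with exact 95% Poisson intervals; an open triangle is the upper limit for a gene without UMIs. *Vcan*, *Chil3* and *Hp* are high in both *Vcan* populations through the rule, *Ly6c2* is higher in the library labelled *Irg1*-/- in each population shown, and *Acod1* of the classical *Vcan* monocytes is at 46.6 and 54.1 CPM, against 29.1 and 23.4 in lymphocytes.

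The limits of the rule lay in a continuum of cells. At the *Vcan*, *Chil3* and *Hp* minimum, 19 and 22 members had exactly 3 UMIs, and 29 and 41 cells that met all other terms had 2. Just inside the *Cxcl9* and *Cxcl10* limit, 8 and 4 members had 4 UMIs, and just outside it 5 and 11 cells had 5. At the C1q limit, 63 and 76 members had 2 UMIs, and 64 and 65 cells with 3 were left out by that term. The most cells lost through a single term failed the *Vcan*, *Chil3* and *Hp* minimum (460 and 539 cells), followed by the C1q limit (296 and 311). The *Cxcl9* and *Cxcl10* limit alone removed 63 and 90 cells, called interferon-activated *Vcan* monocytes from here on, and the hypoxia limit alone removed 53 and 17.

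The members were 2.40% (2.04 to 2.81) and 2.88% (2.47 to 3.35) of the 6284 and 5794 kept cells. The difference was 0.479 percentage points (-0.104 to 1.07), so that it did not exceed counting error. It depended on the gate, at 1.08 percentage points with up to 5 C1q UMIs allowed and -0.071 without the hypoxia limit. Of the *Vcan* monocytes at any *Cxcl9* and *Cxcl10* count, 70.6% (64.0 to 76.6) of 214 and 65.0% (58.8 to 70.8) of 257 were below the limit, a difference of -5.58 percentage points (-14.2 to 3.22) that also lay within counting error.

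The targeted gene *Acod1* had few UMIs in the members of either library. It had 30 and 40 UMIs, or 46.6 (31.4 to 66.5) and 54.1 CPM (38.6 to 73.6), in 9.93% and 16.2% of the members. Lymphocytes had 29.1 and 23.4 CPM. With every cell thinned to 2000 UMIs, which left 133 and 147 members, a UMI remained in 5.26% and 10.2% of the members and in 4.34% and 3.79% of lymphocytes. The log2 ratio of the library labelled *Irg1*-/- over the library labelled *Irg1*+/+ was 0.21 (-0.51 to 0.95). This ratio kept its sign under 15 of 21 alternatives. It was -1.53 in the members with fewer than 2 UMIs of each of the T, NK and B cell lists. These are called members with fewer than 2 lymphocyte UMIs below and can carry 1 UMI of each list. Without the limit on *S100a8* and *S100a9* the ratio was 0.90. Over all kept cells *Acod1* had 87.8 and 108 CPM, a sum over populations in unequal shares. Within populations it was lower in the library labelled *Irg1*-/- in neutrophils, the 23 and 99 cells with at least 1% of their UMIs from *S100a8* and *S100a9* (2796 and 1861 CPM), in interferon-activated *Vcan* monocytes (397 and 259 CPM) and in nonclassical monocytes (106 and 46.6 CPM, with overlapping intervals), and higher in C1q macrophages (49.1 and 107 CPM) and *Cd209a* cells (15.7 and 39.8 CPM). The gene was therefore not absent from the library labelled *Irg1*-/-. Counts per gene leave unseen whether the deleted stretch is transcribed. Each direction between the libraries given here therefore rests on their labels.

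For 2700 genes the libraries together held 100 or more UMIs. Among these, 95 were at least 1.5-fold higher in the library labelled *Irg1*-/- (3.52%) and 89 at least 1.5-fold lower (3.3%), with a median log2 ratio of -0.02. Ratios were formed with a pseudocount of 0.5 UMIs. These 2 shares are the background for the counts of each list below. The number of genes past this fold is a description of 2 libraries, not a count of tested changes.

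Among the 50 genes of the type I interferon list that reached the floor of 100 UMIs, 29 were at least 1.5-fold higher in the library labelled *Irg1*-/-, against 3.52% of all genes, and none was that much lower. The median log2 ratio was 0.61, and 49 of the 50 ratios were above 0. In the 30 and 28 members with fewer than 2 lymphocyte UMIs, 3 list genes reached the floor and 1.5-fold, with a median of 0.40. In the 26 and 36 members without a C1q UMI these were 5 genes and 0.40. With 6 or more UMIs of *Vcan*, *Chil3* and *Hp* they were 16 genes and 0.50. The genes of tissue dissociation described below had a median of 0.34 between the same libraries, and their part was not tested. Summed over the list, the members had 13429 CPM (13147 to 13715) and 19366 CPM (19050 to 19685), while lymphocytes had 7689 and 8317 CPM. This list contains sensors of viral RNA, enzymes that block viral replication and the factors that keep the response going.

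*Ifit3*, of the interferon-induced RNA-binding IFIT family, showed the highest log2 ratio of all genes named, 2.20 (1.53 to 3.0). It had 20 and 108 UMIs, or 31.1 (19.0 to 48.0) and 146 CPM (120 to 176), and 35% of the UMIs in the library labelled *Irg1*+/+ came from 1 member. The transcription factor *Irf7*, which amplifies interferon production, had 207 (173 to 245) and 406 CPM (361 to 454). *Stat2*, of the complex that relays the type I signal, had 146 and 279.8 CPM, a log2 ratio of 0.93 (0.58 to 1.31). For both, the counting intervals of the libraries did not overlap.

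*Isg15*, a ubiquitin-like protein attached to other proteins under interferon, had 269 (230 to 312) and 489 CPM (440 to 542) and was detected in 47.0% and 65.9% of the members. Among antiviral effectors, *Oas2*, an oligoadenylate synthetase, had 54.4 and 111 CPM with a log2 ratio of 1.02 (0.44 to 1.64), and *Rtp4* had 148 and 291 CPM with a ratio of 0.97 (0.62 to 1.34). The RNA-sensing kinase gene *Eif2ak2* (PKR) had 90.1 and 170.3 CPM, and the RNA helicase gene *Ddx58* (RIG-I) 71.5 and 129.8 CPM. *Bst2*, whose product tethers budding virions, and *Rsad2*, which encodes viperin, were higher by log2 ratios of 0.63 (0.30 to 0.96) and 0.65 (0.25 to 1.06). All of these were past 1.5-fold, and without a *Cxcl9* and *Cxcl10* limit the ratio of *Rsad2* was -0.61.

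*Ifi207* and *Ifi204*, DNA-binding genes of the interferon-inducible Ifi200 family, had ratios of 0.04 (-0.11 to 0.19) and 0.24 (0.08 to 0.40). Within the same family *Ifi209* and *Ifi213* were past 1.5-fold, and so was *Ifi206* (69.9 and 174 CPM, log2 ratio 1.31), which is not on the list. Genes of the Ifi200, Schlafen (*Slfn1*, *Slfn4*, *Slfn5*, *Slfn8*) and *Phf11* families are close copies of each other, so that the counting of reads could divide signal among them.

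The type II interferon list had a lower median ratio than the type I list over all members, an order that was not tested. All 18 genes that reached the floor had ratios above 0, with a median of 0.30, but only *Iigp1*, *Aif1* and *Fcgr4* were past 1.5-fold, and none was lower. The median was 0.71 in the 26 and 36 members without a C1q UMI, above the type I median of 0.40 there. It was -0.45 in the 30 and 28 members with fewer than 2 lymphocyte UMIs. *Iigp1*, an immunity-related GTPase, had 35.7 and 109 CPM, below the lymphocyte level of 140 CPM in both libraries. *Aif1*, which encodes the actin-binding Iba1, had 298 (258 to 344) and 569 CPM (516 to 626). The activating Fc receptor gene *Fcgr4* had 171 and 277 CPM. *Gbp2*, a guanylate-binding GTPase and the most abundant gene of the list, had 1001 (925 to 1081) and 1073 CPM (1000 to 1151), with overlapping intervals. Its ratio of 0.10 was 0.71 in the members without a C1q UMI and turned to -1.13 in those with fewer than 2 lymphocyte UMIs. *Irf1*, a transcription factor of interferon responses, had 743 and 949 CPM, a ratio of 0.35 (0.18 to 0.52) that stayed under 1.5-fold.

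To show the DNA at which these responses are read, promoters of genes from both lists are printed from RefSeq (GRCm38.p6). The windows are 100 bases long and lie before the gene start. The core of the interferon-stimulated response element (ISRE), spelled GAAA, any 2 bases and GAAA again, which the type I complex with Stat2 and Irf9 recognizes, was searched on both strands, and its matches are in capitals in the promoters of *Isg15* (chr4:156200827-156200926, minus strand), *Rsad2* (chr12:26456503-26456602, minus strand), *Bst2* (chr8:71537533-71537632, minus strand) and *Fcgr4* (chr1:171018823-171018922, plus strand), all past 1.5-fold:
Isg15: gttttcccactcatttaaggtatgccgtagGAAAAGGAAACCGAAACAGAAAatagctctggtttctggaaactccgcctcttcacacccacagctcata
Rsad2: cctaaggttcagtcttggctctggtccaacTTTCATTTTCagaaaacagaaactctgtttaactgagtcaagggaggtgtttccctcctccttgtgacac
Bst2: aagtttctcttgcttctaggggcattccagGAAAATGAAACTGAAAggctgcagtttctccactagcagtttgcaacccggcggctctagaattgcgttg
Fcgr4: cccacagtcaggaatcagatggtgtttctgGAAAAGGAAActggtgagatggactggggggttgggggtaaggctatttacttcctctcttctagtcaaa

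The gamma-activated site, TTCNNNGAA, an element of type II interferon responses that was also searched on both strands, is in capitals in the promoters of *Irf1* (chr11:53769894-53769993, plus strand) and *Igtp* (chr11:58199456-58199555, plus strand), which stayed under 1.5-fold. Each set marks 1 kind of site only: the *Igtp* window also holds an ISRE core, and the *Bst2* window also holds TTCNNNGAA, neither marked as such:
Irf1: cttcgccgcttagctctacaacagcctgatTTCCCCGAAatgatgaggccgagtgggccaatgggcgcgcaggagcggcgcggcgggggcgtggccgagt
Igtp: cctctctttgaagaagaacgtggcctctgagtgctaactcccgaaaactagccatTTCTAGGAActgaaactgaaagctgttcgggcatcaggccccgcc

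The promoter table, with 250 bases before and 50 bases after each gene start, held 24 of the 29 type I genes past 1.5-fold. The ISRE core occurred in 12 of these 24 promoters (50%), in 8 of the 17 promoters of the other type I genes (47.1%) and in 3.99% of all 27025 promoters. It was also in both of the 2 promoters held for type II genes past 1.5-fold and in 6 of the 12 of the other type II genes (50%). Of the genes tested in the members, 5.79% had it. TTCNNNGAA occurred in 3 of the 24 promoters of type I genes past 1.5-fold (12.5%), in 3 of the 17 of the other type I genes (17.6%), in 0 of the 2 and 7 of the 12 promoters of type II genes (58.3% of the latter) and in 9.55% of all promoters. These shares were not tested against each other. A match shows that the letters are there, not that a factor was bound.

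**Figure D2:**
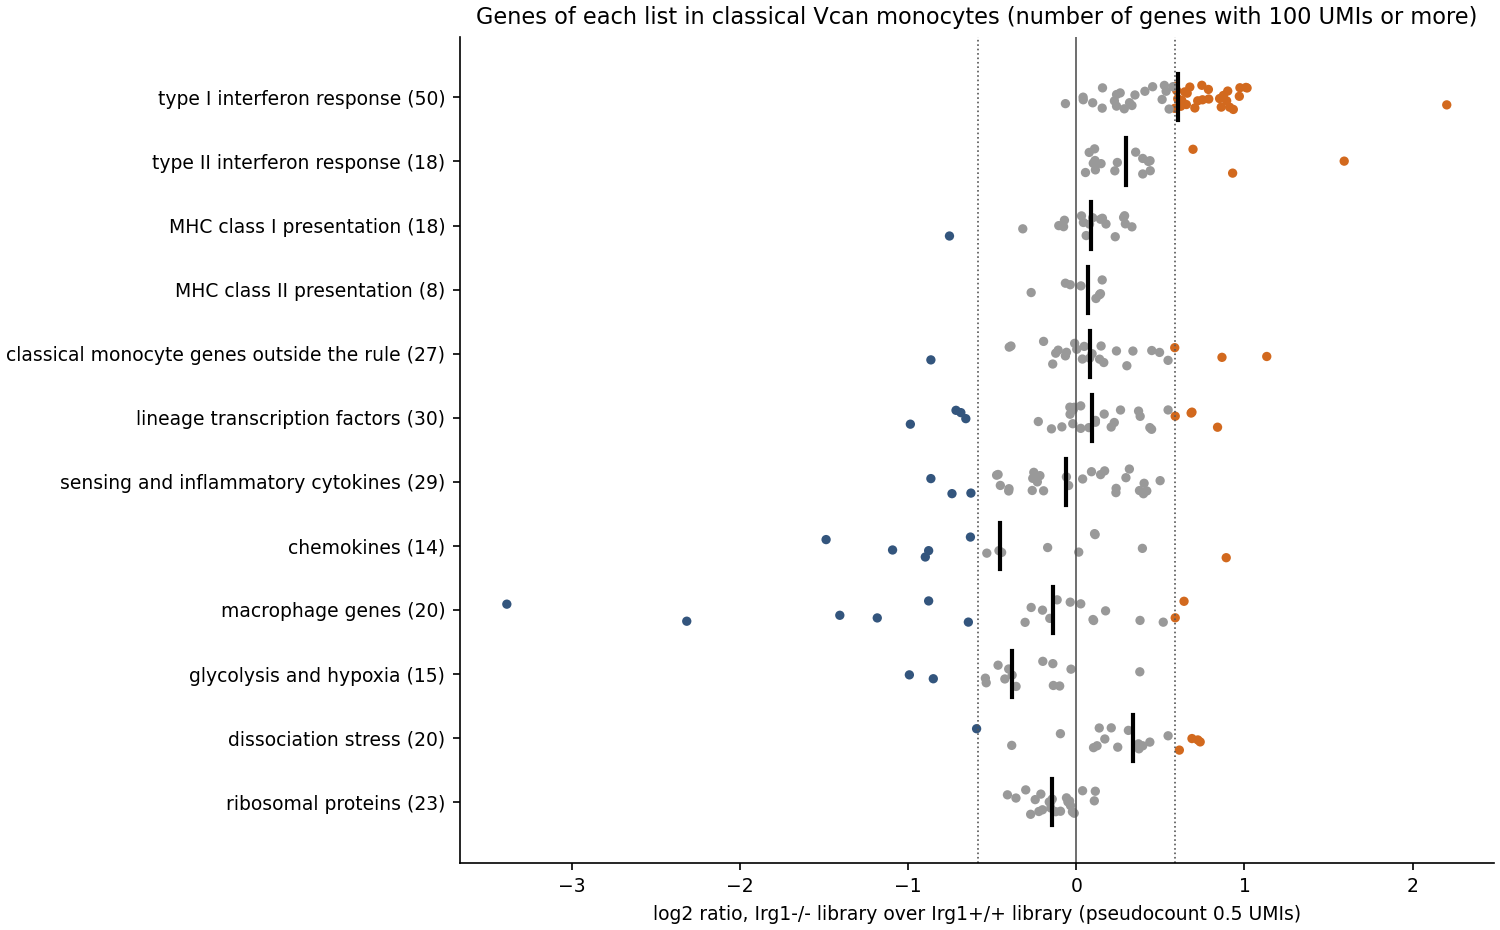
Log2 ratio (library labelled *Irg1*-/- over library labelled *Irg1*+/+) of every gene with at least 100 UMIs in 12 lists, in the classical *Vcan* monocytes. Each point is a gene, colored when past 1.5-fold (dotted lines), and the bar is the median: 0.61 for the type I interferon list, 0.30 for type II, 0.07 for MHC class II and -0.45 for chemokines.

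Antigen presentation genes had medians close to 0. The 8 MHC class II genes that reached the floor had a median log2 ratio of 0.07 and none was past 1.5-fold. In the 26 and 36 members without a C1q UMI the median was -0.37 and 1 gene was past 1.5-fold, and the median was also below 0 with 6 or more UMIs of *Vcan*, *Chil3* and *Hp* (-0.094) and after thinning (-0.066). *H2-Aa*, an alpha chain, had 3003 and 3305 CPM, and the invariant chain gene *Cd74* 3591 and 3894 CPM. Lymphocytes had 2732 and 2912 CPM of *H2-Aa*, but they include B cells, which make MHC class II themselves, so that this is no measure of free RNA. Of 18 MHC class I genes, *Erap1*, which trims peptides in the endoplasmic reticulum, was past 1.5-fold on the lower side (-0.75, -1.29 to -0.24) and none on the higher side. Any gene of that list was past 1.5-fold under 14 of 21 alternatives only. *B2m*, the class I light chain, had 5151 and 5737 CPM.

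Classical monocyte genes outside the rule had a median log2 ratio of 0.08 over 27 genes. *Ly6c2* was 1 of 3 that were past 1.5-fold on the higher side, with *Ly6i* and *Gm9733*, and *Clec4e* was the only one on the lower side. *Ly6c2* had 1313 and 3310 UMIs and was found in 88.1% and 94.6% of the members. The median member had 5 and 13 *Ly6c2* UMIs. Its log2 ratio was 1.13 (1.04 to 1.23). In the lymphocytes the ratio was 0.49 (0.42 to 0.56), so the gene was higher in the library labelled *Irg1*-/- beyond monocytes too. *Ly6c2* and *Ly6c1* are nearly identical in sequence, and reads may have been divided between them. *Ly6i*, of the same family, had 121 and 222 CPM. *Plac8*, *Ifitm3* and *Thbs1*, which encodes the matrix protein thrombospondin, had ratios of 0.34, 0.50 and -0.06.

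*Chil3*, a chitinase-like secreted protein used in the rule, was lower in the library labelled *Irg1*-/- (2537 and 1580 CPM, log2 ratio -0.68) and *Hp*, which encodes the hemoglobin-binding haptoglobin, higher (197 and 257 CPM). Since 3 UMIs of either gene make a cell a member, these levels are a description.

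**Figure D3:**
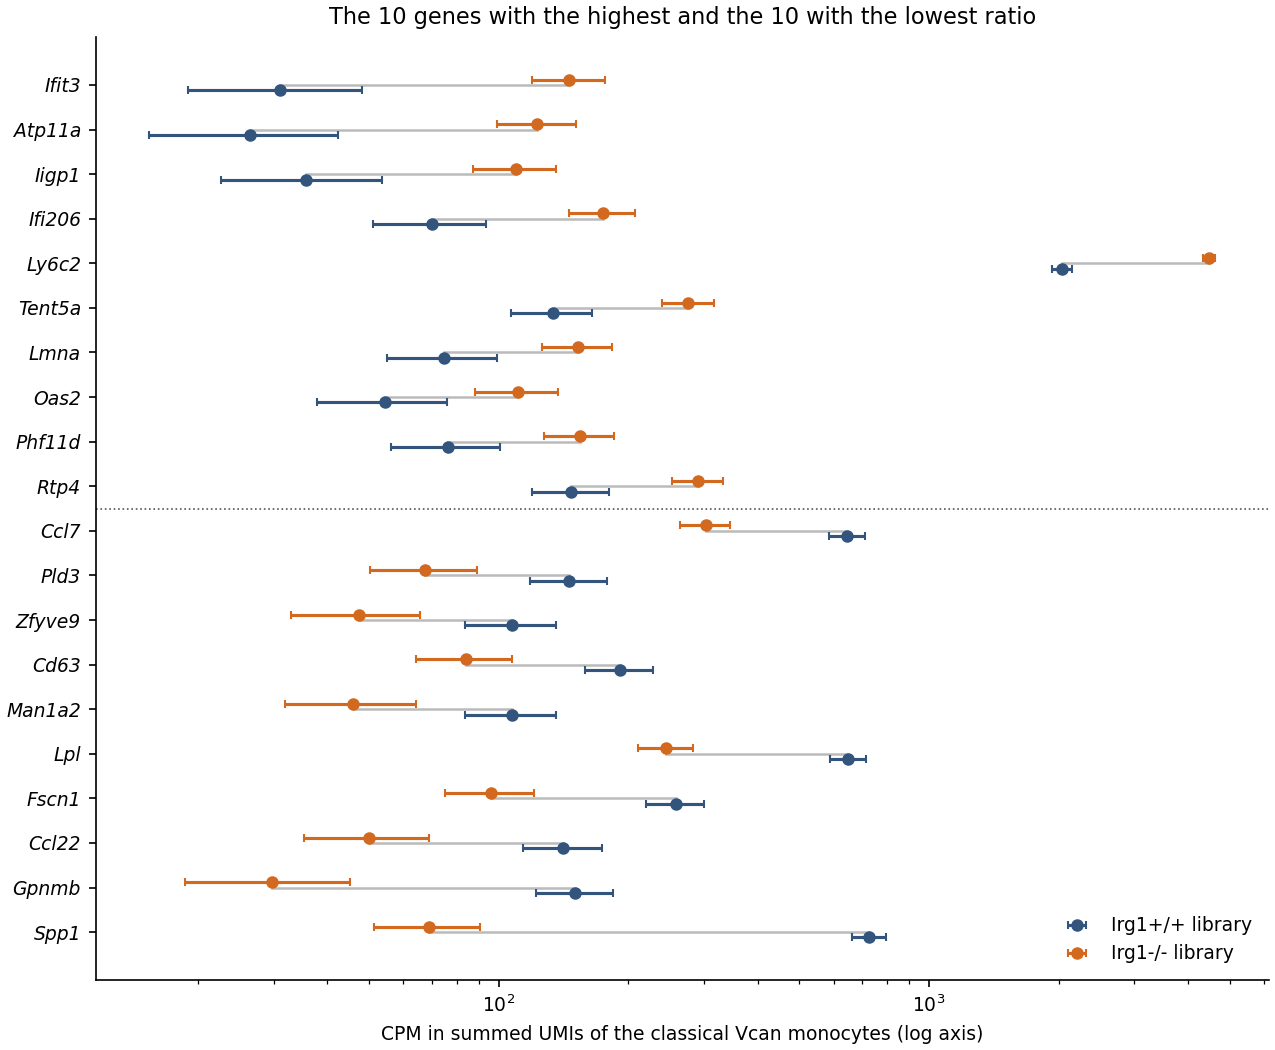
CPM (log axis) in the summed UMIs of the classical *Vcan* monocytes of the 10 genes with the highest and the 10 with the lowest log2 ratio, with exact 95% Poisson intervals. *Ifit3* went from 31.1 to 146 CPM, *Ly6c2* had the highest level of the genes shown, and *Spp1* went from 727 to 68.9 CPM.

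Outside the interferon lists and *Ly6c2*, the 10 highest ratios included *Atp11a*, a phospholipid flippase of the plasma membrane, with 26.4 and 123 CPM and a UMI in 9.27% and 38.3% of the members. Its log2 ratio was 2.19 (1.46 to 3.06), or 0.39 in the 30 and 28 members with fewer than 2 lymphocyte UMIs, and lymphocytes had 21.8 and 23.4 CPM of *Atp11a*. *Tent5a*, which encodes a non-canonical poly(A) polymerase, had 134 and 276 CPM, which compares with 238 and 159.8 CPM in lymphocytes. The *Tent5a* ratio of 1.04 was 0.21 after thinning. The lamin gene *Lmna* had 74.6 and 153 CPM, and its ratio turned to -0.58 in the 26 and 36 members without a C1q UMI. The order of *Ifit3* and *Atp11a*, and that of the genes from *Tent5a* to *Rtp4*, was within their intervals.

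Macrophage genes lay on both sides of a log2 ratio of 0. Of the 20 that reached the floor, 6 were past 1.5-fold on the lower side, against 3.3% of all genes, and 2 on the higher side, with a median of -0.14 that was 0.24 in the members with fewer than 2 lymphocyte UMIs. *Spp1*, which encodes the secreted phosphoprotein osteopontin, differed most, with 727 (663 to 796) and 68.9 CPM (51.3 to 90.6) and a log2 ratio of -3.39 (-3.85 to -2.98). It was found in 41.1% and 17.96% of the members. Lymphocytes had 122 and 106 CPM, so that the members of the library labelled *Irg1*-/- were below that level. The ratio of *Spp1* was -0.61 in the 26 and 36 members without a C1q UMI, -1.50 in the 30 and 28 with fewer than 2 lymphocyte UMIs, -2.10 after thinning and -2.16 with up to 5 C1q UMIs allowed. In the library labelled *Irg1*+/+, *Spp1* was unevenly spread, from 70.9 CPM in members with 3 to 4 *Cxcl9* and *Cxcl10* UMIs to 1078 CPM in those with 1 to 2.

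The lipoprotein lipase gene *Lpl* had 649 (589 to 715) and 245 CPM (210 to 283), a ratio of -1.41 (-1.67 to -1.15). *Cd63*, a tetraspanin of late endosomes, had 191 and 83.8 CPM, and the protease gene *Ctsl* 306 and 196 CPM. In the 26 and 36 members without a C1q UMI, the ratio of *Lpl* was 1.10 and that of *Cd63* 0.0055. *Gpnmb*, a lysosomal glycoprotein of macrophages that melanocytes also make, had 151 and 29.7 CPM. Lymphocytes showed the same order for *Gpnmb* (117 and 38.8 CPM), and melanocyte genes summed to 235 and 66.2 CPM in members and 370 and 62.2 CPM in lymphocytes, led by *Dct*. The *Gpnmb* ratio of -2.32 was -0.86 in the members without a C1q UMI and -0.055 in those with fewer than 2 lymphocyte UMIs, and the part of free tumor RNA in it was not tested. Among the genes on the higher side, the mannose receptor gene *Mrc1* had 197 and 308 CPM and the transcription factor *Maf* 277 and 416 CPM. *Mrc1* was past 1.5-fold under 16 of 21 alternatives and *Maf* under 10, with a lowest *Maf* ratio of 0.29 without the *Cxcl9* and *Cxcl10* limit. *Apoe*, a lipid carrier, had 645 and 923 CPM, a ratio of 0.52 that stayed under 1.5-fold.

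Of 14 chemokines, 5 were past 1.5-fold on the lower side (against 3.3% of all genes) and *Cxcl1* on the higher side (against 3.52%), with a median of -0.45. In the members without a C1q UMI that median was 0.34 and 2 genes were past 1.5-fold, and 2 were also past it with up to 5 C1q UMIs allowed, after thinning, without the deepest 10% of the members and in the members with fewer than 2 lymphocyte UMIs. *Ccl7*, a ligand of Ccr2, had 646 (586 to 712) and 303 CPM (264 to 345), and *Ccl12*, another Ccr2 ligand, had 207 and 112 CPM. *Cxcl2*, which attracts neutrophils, had 1690 and 907 CPM, a ratio of -0.90 (-1.04 to -0.76). *Cxcl16* had 138 and 89.2 CPM. These genes were above the lymphocyte level in the library labelled *Irg1*+/+, where lymphocytes had 226, 81.6, 431 and 103 CPM. *Ccl22*, a chemokine of mature dendritic cells, took 38% of its UMIs in that library from 1 member, and the actin-bundling *Fscn1* of the same cells 43%. Without the member that held the most in each library, their ratios of -1.49 and -1.42 were -0.91 and -0.70. *Ccl6* and *Ccl9*, the most abundant chemokines, had ratios of 0.11 and -0.17. In the members without a C1q UMI the ratio of *Ccl7* was 0.49. *Cxcl1* was carried by 16.6% and 8.38% of the members, and 1 member held 36% of its UMIs in the library labelled *Irg1*-/-. Its direction turned under 6 alternatives, with ratios from -1.66 to -0.11.

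Of 21 receptor genes for chemokines and adhesion only the integrin gene *Itgax*, common on dendritic cells, was past 1.5-fold, on the lower side (162 and 103 CPM). *Ccr2* had a ratio of 0.14 (0.03 to 0.25), the integrin gene *Itgam* 901 and 903 CPM, and the hyaluronan receptor gene *Cd44* 1695 and 1538 CPM.

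Genes of sensing and inflammation were mostly close between the libraries (29 genes, median -0.06). On the lower side were *Clec4e*, which encodes the glycolipid receptor Mincle, with 884 (813 to 960) and 485 CPM (436 to 538), the costimulatory gene *Cd86* with 388 and 232.5 CPM, and *Nfkbia*, the inhibitor of NF-κB, with 954 and 618 CPM. These 3 genes were past 1.5-fold under 20, 17 and 15 of 21 alternatives. The *Cd86* ratio of -0.74 was -0.19 after thinning and -1.48 in the members without a C1q UMI. None was past 1.5-fold on the higher side. The inflammatory cytokine gene *Il1b* had 1899 and 2511 CPM, a ratio of 0.40 (0.30 to 0.51), and its receptor antagonist *Il1rn* had 1114 and 807 CPM, a ratio of -0.46 (-0.62 to -0.31). The ratio of *Il1rn* turned to 0.36 in the members without a C1q UMI and was -1.04 in those with fewer than 2 lymphocyte UMIs.

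In the itaconate and Nrf2 list none of 17 genes was past 1.5-fold, and the median was 0.02. This list holds *Acod1* below the floor, and above it *Nfe2l2*, which encodes Nrf2 (662 and 727 CPM), and the ferritin heavy chain gene *Fth1* (5548 and 5146 CPM). Glycolysis and hypoxia genes leaned to the lower side: 14 of 15 ratios were below 0, the median was -0.38, and the glucose transporter gene *Slc2a1* (194 and 97.3 CPM) and the stress-responsive *Ndrg1* (115 and 63.5 CPM) were past 1.5-fold. The rule used hypoxia genes, so the ratios are not independent of it. Without the hypoxia limit the median was -0.50 and 7 genes were past 1.5-fold. In the 26 and 36 members without a C1q UMI the median was -0.0054, no gene was past 1.5-fold and the ratio of *Slc2a1* was 0.35, and after thinning the ratio of *Ndrg1* was 0.026. Of the arginine and suppressive genes, the matrix metalloproteinase gene *Mmp19* (85.5 and 161 CPM) and *Slfn4* were past 1.5-fold on the higher side and *Mmp8* (104 and 60.8 CPM) on the lower, while *Tgfbi*, a matrix adhesion gene induced by TGF-β, had 1787 and 2375 CPM.

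Of 30 transcription factors of myeloid lineages, 4 were higher past 1.5-fold, against 3.52% of all genes, and 4 lower, against 3.3%. *Klf4*, a factor needed for monocyte formation, had 228 (193 to 268) and 410 CPM (365 to 458). *Fos* had 1189 and 1915 CPM and *Fli1* 74.6 and 120.3 CPM. On the lower side were *Bhlhe40* (295 and 149 CPM), the NF-κB subunit gene *Rel* (517 and 315 CPM), *Id2* (435 and 276 CPM) and *Tcf7l2* (91.7 and 56.8 CPM), whose log2 ratio of -0.69 was 0.28 after thinning. No growth factor or cytokine receptor gene of 16 was past 1.5-fold, among them *Csf2ra* with 1055 and 1022 CPM.

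Of 20 genes known to respond to tissue dissociation, 15 stayed under 1.5-fold, 4 were past it on the higher side (*Fosb*, *Btg2*, *Fos* and *Dnajb1*, against 3.52% of all genes) and *Egr1* on the lower (against 3.3%), with a median of 0.34. The list summed to 13199 and 16322 CPM in the members and 10423 and 12958 CPM in lymphocytes, led by *Hspa8*. The part of dissociation in the differences between the libraries was not tested. Ribosomal protein genes had a median of -0.14 over 23 genes with none past 1.5-fold. Of lymphocyte genes, *Trbc2*, *Gzma* and *Igkc* were past 1.5-fold on the higher side, and the *Trbc2* ratio of 0.73 was -0.91 after thinning and -0.14 with 6 or more UMIs of *Vcan*, *Chil3* and *Hp*. Their lists summed to 831 and 920.5 CPM (T cell), 454 and 635 CPM (NK cell, led by *Gzma*) and 281 and 430 CPM (B cell, led by *Igkc*), and the part of such cells or of free RNA in the ratios was not tested.

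The *Cxcl9* and *Cxcl10* count, which the rule limits to 4, was followed inside and beyond its limit. In members without a UMI of either gene (73 and 69 cells), the type I list summed to 12509 (12100 to 12928) and 18897 CPM. With 1 to 2 UMIs (60 and 79 cells) it was 14474 and 19758 CPM, and with 3 to 4 UMIs (18 and 19 cells) 13296 and 19176 CPM. The difference between the libraries was therefore present at every count inside the limit, also in cells without a *Cxcl9* or *Cxcl10* UMI. Beyond the limit the sum stepped up to 24564 and 31196 CPM at 5 to 9 UMIs and 28378 and 33312 CPM at 10 or more.

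*Gbp2* and the type II list behaved differently in the libraries inside the limit. *Gbp2* had 1151, 909 and 811 CPM from the lowest to the highest count in the library labelled *Irg1*+/+, and 695, 1081 and 2166 CPM in the library labelled *Irg1*-/-. The type II list summed to 5568, 5651 and 5685 CPM in the first and 6346, 6990.4 and 9561 CPM in the second. The difference between these courses was not tested, and the highest count holds few cells: in the first library the 10 members with 3 UMIs had 472 CPM of *Gbp2* and the 8 with 4 UMIs 1238 CPM. *Acod1* stayed at or under 86.6 CPM in all 3 classes of both libraries and reached 446 (364 to 541) and 300 CPM (245 to 364) at 10 or more UMIs. Median depth went from 4048 to 5448 UMIs per cell in the first library and from 3872 to 4738 in the second across the classes inside the limit, and a cell with more UMIs reaches a given count more easily.

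**Figure D4:**
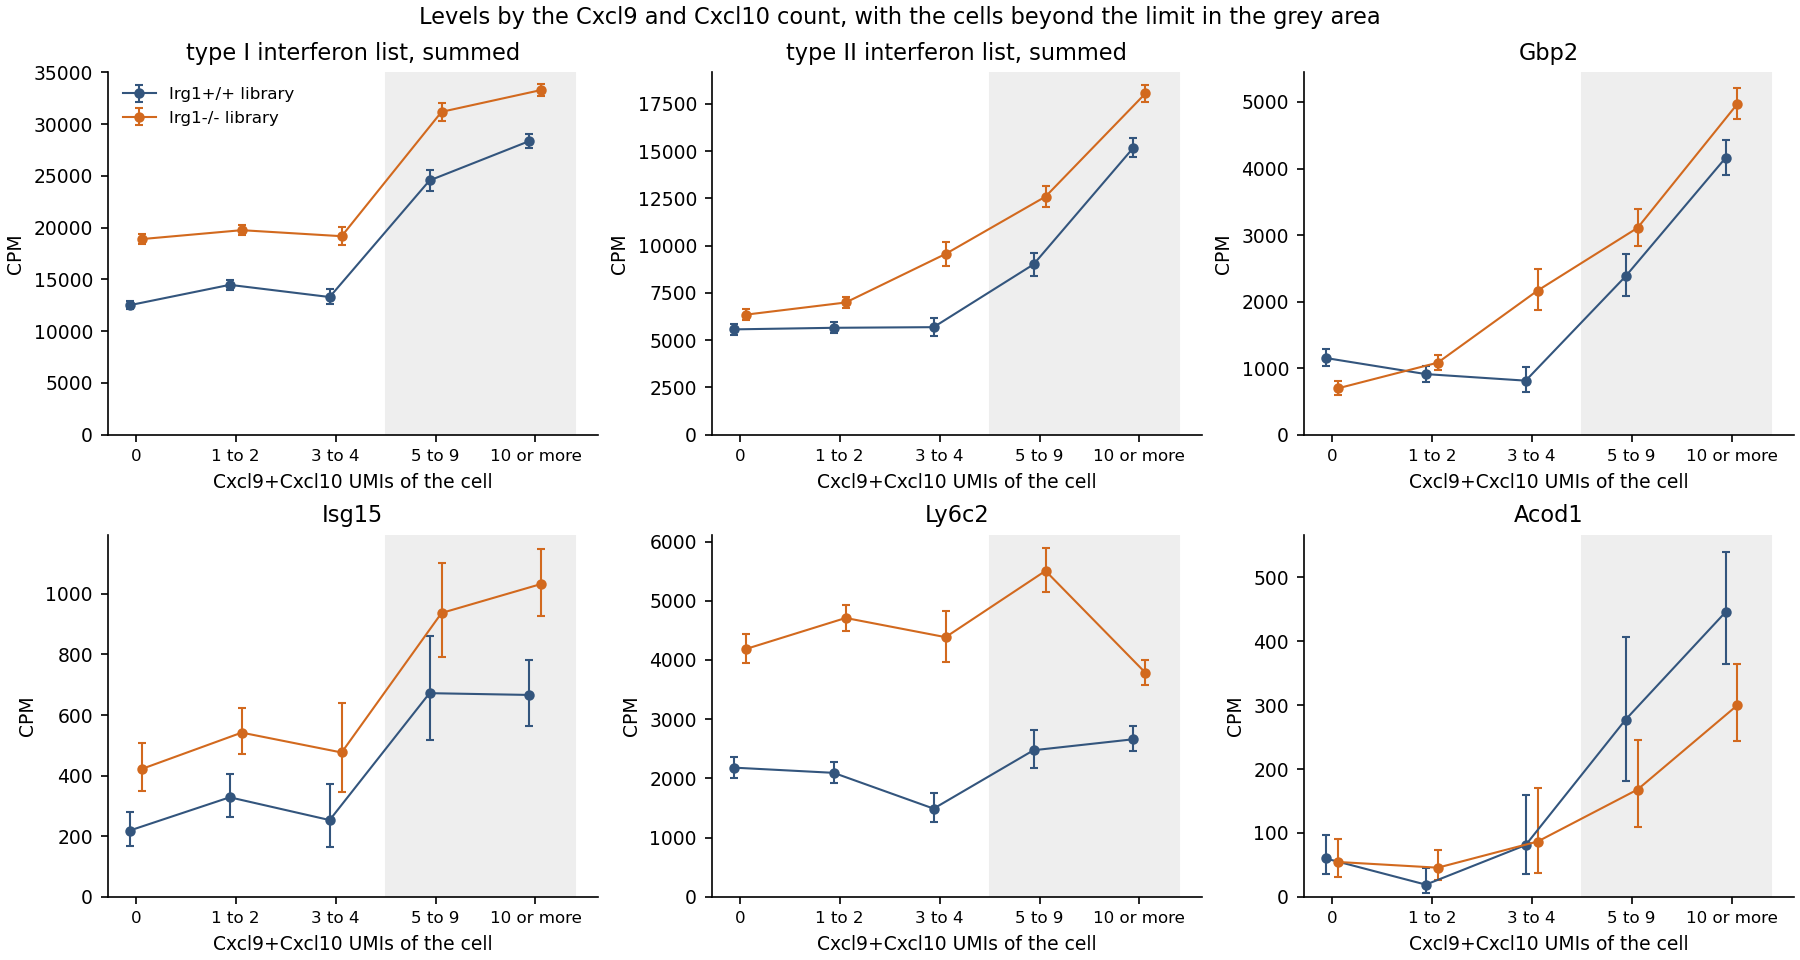
CPM (linear axes from 0) in *Vcan* monocytes grouped by their *Cxcl9* and *Cxcl10* UMIs, with exact 95% Poisson intervals and the cells beyond the limit of the rule in grey. The type I interferon sum is higher in the library labelled *Irg1*-/- in every class, both interferon sums and *Acod1* are higher beyond the limit, and *Ly6c2* is at 1490 to 2182 CPM in the first library and 4185 to 4709 CPM in the second inside it.

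*Ly6c2* had 2182 (2013 to 2361), 2094 and 1490 (1259 to 1751) CPM in that labelled *Irg1*+/+ and 4185, 4709 and 4385 CPM in the library labelled *Irg1*-/- from the lowest to the highest count inside the limit. In the first library the 10 members with 3 UMIs had 2469 CPM and the 8 members with 4 UMIs 252 CPM, so that the low value of the highest class came from those 8 cells, and beyond the limit it had 2476 and 2661 CPM. Inside the limit, the lowest value in the second library was above the highest in the first.

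The members of both libraries together were further divided into 3 groups of equal size by the share of UMIs from *H2-Aa*, *H2-Ab1* and *Cd74*, MHC class II genes that rise as monocytes mature in tissue. From the group with the lowest to that with the highest share, *Ifitm6* had 912, 513 and 236 CPM in the library labelled *Irg1*+/+ and 886, 632 and 323 CPM in the library labelled *Irg1*-/-. *Hp* had 330, 207 and 54.8 CPM in the first and 417, 254 and 126 CPM in the second. *F13a1*, a subunit of coagulation factor XIII, was chosen after its values were seen and had its lowest level in the group with the highest share in both libraries as well. It had 879, 537 and 228 CPM in the first library and 967, 803 and 675 CPM in the second. *Lyz2* had 20647.5, 14657 and 12775 CPM in the first library and 21963, 15014 and 10872 CPM in the second.

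The classical monocyte genes outside the rule summed to 54542, 43042 and 37916 CPM in the first library and 60734, 49329 and 40847 CPM in the second, where the groups share a total with the genes that define them. Not all monocyte genes had this order. *Ccr2* was highest in the group with the highest share, with 1704, 1806 and 2267 CPM in the first library and 2113, 1951 and 2347 CPM in the second. *Vcan* had 1221, 1318 and 1386 CPM in the first and 1279, 1388 and 1396 CPM in the second. *H2-Aa* itself had 1039.6, 1715 and 5899 CPM in the first library. Median depth over the groups ranged from 4100.5 to 4476 and from 4054.5 to 4794 UMIs. *Chil3* was lowest in the group with the highest share too (1715 and 749 CPM). *Spp1* and *Apoe* gave no such order in either library, with *Apoe* between 525 and 792 CPM in the first and between 881 and 943 CPM in the second.

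**Figure D5:**
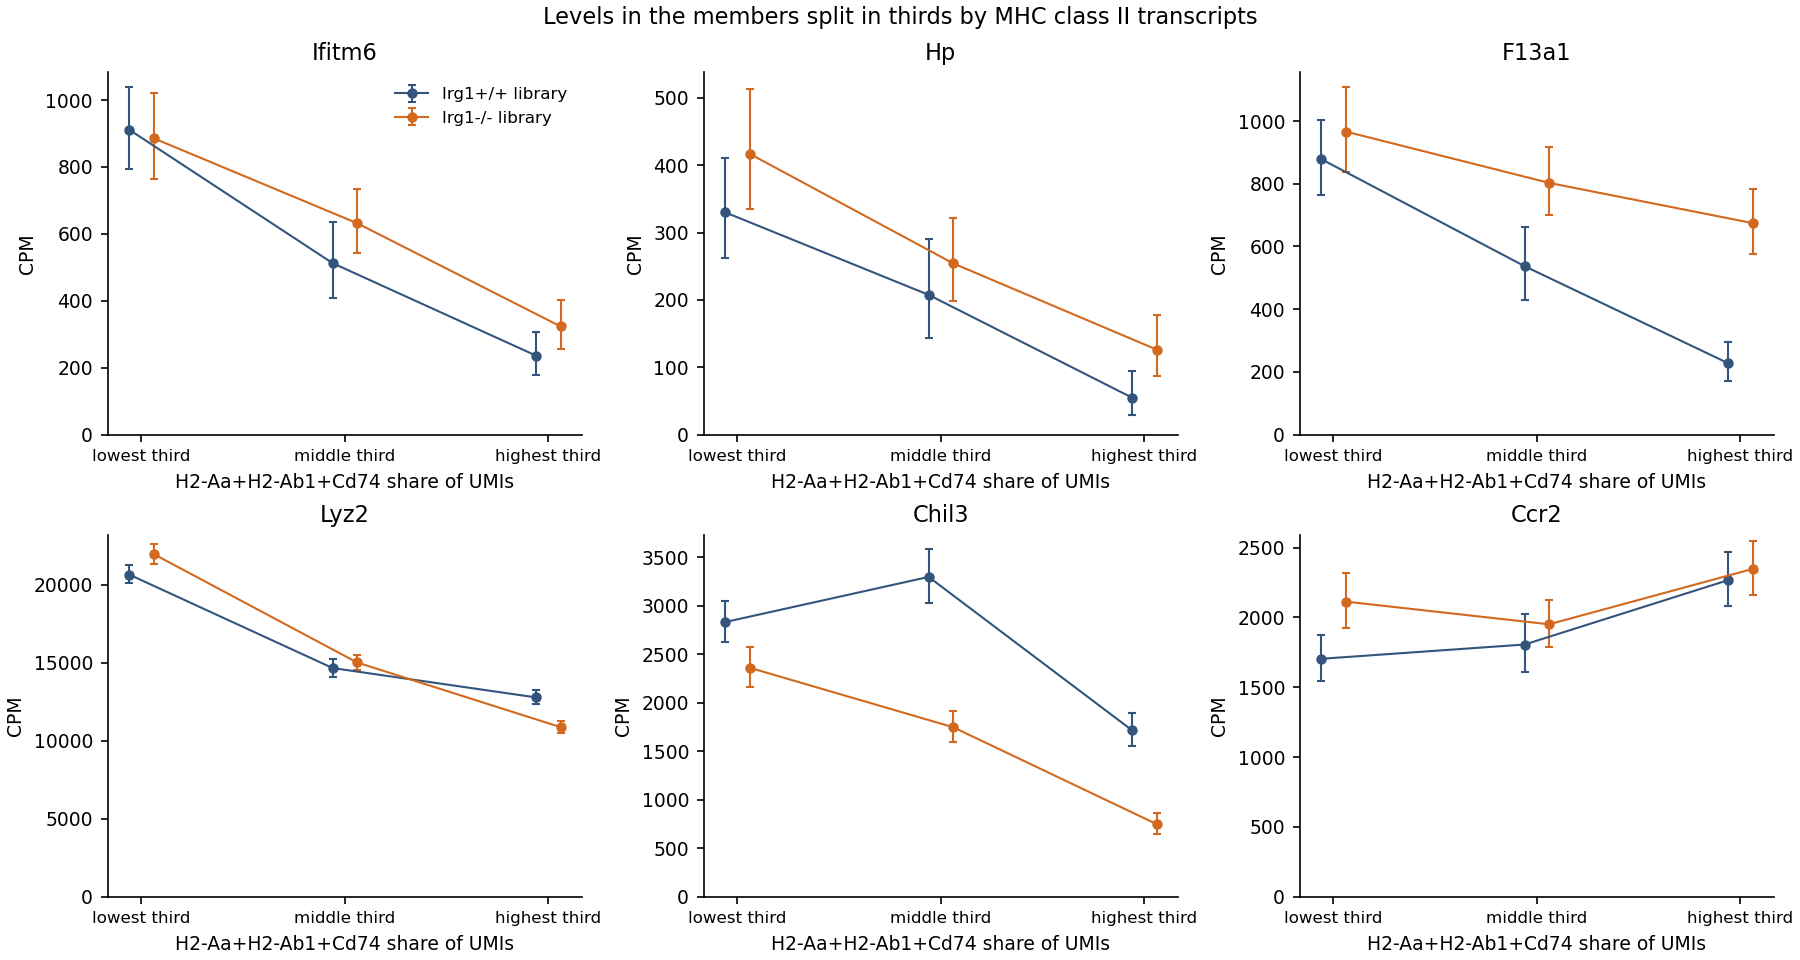
CPM (linear axes from 0) of 6 monocyte genes in the classical *Vcan* monocytes divided into 3 groups by the share of MHC class II transcripts, with exact 95% Poisson intervals. In both libraries *Ccr2* is highest in the group with the highest share (2267 and 2347 CPM) and the other genes shown are lowest there, as *Ifitm6* with 236 and 323 CPM.

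Members with few rule UMIs had a lower sum of the classical monocyte genes outside the rule. With 3 to 4 UMIs of *Vcan*, *Chil3* and *Hp* (32 and 34 cells), these genes summed to 28634 and 34869.8 CPM. With 10 or more (84 cells in each library) they summed to 49489 and 56145 CPM. *Ly6c2* in the library labelled *Irg1*-/- had 3286 CPM in the 22 members with 3 UMIs and 6650 CPM in the 12 with 4. In the library labelled *Irg1*+/+ it had 1261 and 976 CPM in the 19 and 13 such members, and 2142 CPM with 10 or more. The cells with 3 to 4 UMIs had more transcripts of other cell types in both libraries. Dendritic cell genes summed to 2507 and 1316 CPM in them and to 622 and 549 CPM in members with 10 or more UMIs, and T cell genes to 1241 and 2595 CPM against 745 and 476 CPM. Their part in the differences between these members was not tested. *Cd209a*, a lectin gene of dendritic cells that descend from monocytes, had 79.6 and 207 CPM at 3 to 4 UMIs and 15.4 and 12.7 CPM at 10 or more. It was chosen after its values were seen.

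Compared with the neighbouring populations, the members differed where the gates differ and in genes that go with them. These contrasts use the cells that the gates chose, so they are descriptions. Against the interferon-activated *Vcan* monocytes (63 and 90 cells), 89 of 3709 genes (2.4%) were at least 1.5-fold higher in the members of both libraries and 154 (4.15%) lower. Of the type I list, 32 of 60 genes were lower and none higher, and of the type II list 21 of 28 were lower. *Acod1* had 46.6 CPM in the members against 397 in the interferon-activated cells of the library labelled *Irg1*+/+, and 54.1 against 259 in the library labelled *Irg1*-/-. *Cx3cr1*, the fractalkine receptor of patrolling cells, was highest on the other side, with 74.6 against 24.6 CPM and 100.02 against 28.3 CPM.

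Against nonclassical monocytes (47 and 44 cells), 18 of 19 nonclassical genes were lower in the members of both libraries, against 7.56% of all genes, and of 27 classical genes 11 were higher, against 7.03%, and 4 lower. *Ccr1*, a receptor of inflammatory chemokines, had 522 against 74.8 CPM and 530 against 52.4 CPM. *Ear2*, a ribonuclease gene, had 18.6 against 349 CPM and 22.98 against 372 CPM. *Ifitm6* did not separate them, with 543 and 698 CPM in nonclassical monocytes.

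Against C1q macrophages (544 and 548 cells, which were deeper), 25 of 28 classical genes were higher in the members of both libraries, against 7.26% of all genes, and 1 was lower. Lower were 26 of 32 macrophage genes, 8 of 11 MHC class II genes and all 22 cell cycle genes, against 17.7%. *Cd177*, a surface glycoprotein, had 110.3 against 3.68 CPM and 101 against 7.62 CPM. The proliferation gene *Mki67* had 18.6 against 310.2 CPM and 41.9 against 196 CPM, and was chosen after its values were seen. *Ryk* and *Cenpi* had no UMI in the members of either library.

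The difference in type I interferon genes between the libraries was not confined to the members. The median log2 ratio of the list was 0.61 in the members, 0.32 in interferon-activated *Vcan* monocytes (48 genes), 0.56 in nonclassical monocytes (13 genes), 0.60 in C1q macrophages and 0.53 in *Cd209a* cells, and 0.09 in lymphocytes (50 genes each). For the type II list these medians were 0.30, 0.21, -0.19, 0.56, 0.35 and 0.09, the third over 9 genes and the others over 18. Glycolysis and hypoxia genes were at -0.38, -0.15, -0.22, -0.10, -0.35 and -0.25. All of these come from the same pair of libraries, and whether one population differs from another was not tested. *Isg15* had log2 ratios of 0.58, 1.27, 1.11, 0.90 and 0.75 in these 5 populations, against 0.86 in the members. *Spp1* had -3.46 in the interferon-activated *Vcan* monocytes, close to its -3.39 in the members, and -0.40, -0.81, -1.56 and -0.20 in the others.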

How the data were processed

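Single-cell libraries of Cd45+ tumor cells were made with BD Rhapsody, 1 for each genotype. The authors trimmed reads with fastp, listed cell barcodes with UMI-tools and mapped reads with STAR to a mouse genome, GRCm38 in the submitters' processing notes (base calling with CASAVA 1.8, per the labels), and the deposited values are raw UMI counts of 31253 genes per cell. How reads with several matches were counted is not given in the sources used here.

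From these counts members were selected by the rule, mitochondrial genes were left out of totals, and UMIs were summed per library. CPM, shares and log2 ratios (pseudocount 0.5 UMIs, floor of 100 UMIs over both libraries, 1.5-fold) were computed in Python 3.11.15 with numpy 2.4.6, scipy 1.17.1 and pandas 2.3.3. The ratios were tested on simulated counts. There is no test of genotype: cells are not replicates. Thinning drew 2000 UMIs per cell with a fixed seed. No doublet caller was run. TMM factors of edgeR 4.0.16 were an alternative only. Named genes are those of the rule, the 5 markers, *Acod1*, the 10 highest and 10 lowest ratios among genes with a UMI in 10% of the members of either library, the 6 highest and lowest against 3 populations, and in each list the 4 with the most UMIs and those past 1.5-fold. Neighbouring populations were gated on UMIs as well: nonclassical monocytes on 3 or more UMIs of *Ace*, *Adgre4*, *Treml4* and *Ceacam1*, C1q macrophages on 10 or more C1q UMIs, and *Cd209a* cells on 3 or more *Cd209a* UMIs. The members and lists were chosen with earlier results of these data known. Alternatives varied the limits on *Cxcl9* and *Cxcl10*, on *Vcan*, *Chil3* and *Hp*, on C1q, on *S100a8* and *S100a9* and on the hypoxia genes. They also varied the cell filter, depth, scaling, pseudocount and floor. The limits on *Csf1r*, on *Ace*, *Adgre4*, *Treml4* and *Ceacam1*, and on *Ccl24* and *Mgl2* were not varied. List genes under symbols absent from the files were not analysed here. Some single genes are not reported here.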

Additional observations from a re-analysis of the deposited data

Results flagged for a closer look

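Of the genes named for the comparison of libraries in the classical *Vcan* monocytes, 3 had a log2 ratio past 1.5-fold in the opposite direction in a neighbouring population. *Lpl* was lower in the library labelled *Irg1*-/- in the members (-1.41) and higher in the interferon-activated *Vcan* monocytes (0.75, 0.48 to 1.03), but was at 1.10 in the members without a C1q UMI. *Man1a2*, a mannosidase of the Golgi, was lower in the members (-1.21) and higher in the interferon-activated *Vcan* monocytes (0.91, 0.00 to 1.97), but was at 0.15 in the members with fewer than 2 lymphocyte UMIs. *Zfyve9*, an endosomal adaptor of TGF-β signaling, was lower in the members (-1.17) and higher in C1q macrophages (0.63, 0.17 to 1.09), and was at -0.25 in the members after thinning. With 1 library per genotype the difference between the populations was not tested.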

How the results depend on the processing

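Of 21 alternatives, 2 (leaving out the 5 members of each library with the most lymphocyte, *Fscn1* and *Ccl22* UMIs, and leaving out shared barcodes) were chosen after the data were seen. Of 1983 comparisons with the reported value, 1636 were labelled as the same within tolerance, 323 as moved and 24 as reversed. These labels do not count every change of sign. *Acod1*, labelled as the same under 20 of 21 alternatives and as reversed under none, kept its sign under 15. The cause of a move was not tested. The filter on over 200 genes left the members as they were. The genes higher past 1.5-fold, 95 as reported, numbered 31 without any C1q UMI (26 and 36 cells), 158 with up to 5, 17 without members that had 2 or more lymphocyte UMIs (30 and 28 cells) and 387 at a floor of 30 UMIs. The genes lower, 89 as reported, numbered 22, 200, 14 and 459 under these, 157 without the hypoxia limit and 57 after thinning. The log2 ratio of *Ly6c2* was 0.99 with at most 1 *Cxcl9* and *Cxcl10* UMI and 0.98 without that limit. It was 0.98 with 6 or more *Vcan*, *Chil3* and *Hp* UMIs and 1.30 without any C1q UMI. It was 0.98 after thinning, 1.02 without the deepest 10% and 0.68 without members that had 2 or more lymphocyte UMIs. *Acod1* was at -1.53 in that last subset. The type I median, 0.61 as reported, was 0.50 with 6 or more rule UMIs and 0.40 without any C1q UMI. It was 0.71 with up to 5 C1q UMIs and 0.40 without members that had 2 or more lymphocyte UMIs. The type I genes past 1.5-fold, 29 as reported, ranged from 3 (without members that had 2 or more lymphocyte UMIs) to 37 (up to 5 C1q UMIs). The type II median was 0.71 without any C1q UMI and -0.45 without members that had 2 or more lymphocyte UMIs. The MHC class II median was -0.094 with 6 or more rule UMIs, -0.37 without any C1q UMI and 0.18 with up to 5. It was -0.066 after thinning and 0.25 without members that had 2 or more lymphocyte UMIs. The difference in share was 1.08 percentage points with up to 5 C1q UMIs and -0.071 without the hypoxia limit.

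Some changes of sign were not labelled as reversed. Among them were *Il1rn* at 0.36 without any C1q UMI and *Gbp2* at -1.13 without members that had 2 or more lymphocyte UMIs. The 24 labelled as reversed were of single genes, as follows. Without any C1q UMI, *Ccl7* was at 0.49, *Cd36* at 1.06, *Cd63* at 0.0055, *Cxcl1* at -1.66, *Lmna* at -0.58, *Lpl* at 1.10 and *Slc2a1* at 0.35. Without members that had 2 or more lymphocyte UMIs, *Cd36* was at 1.73, *Cxcl1* at -0.14, *Lmna* at -0.055, *Man1a2* at 0.15 and *Pld3* at 0.15. After thinning, *Cxcl1* was at -0.38, *Fscn1* at 0.072, *Ndrg1* at 0.026, *Tcf7l2* at 0.28 and *Trbc2* at -0.91. With 6 or more rule UMIs, *Fscn1* was at 0.072 and *Trbc2* at -0.14, and with 2 or more *Egr1* was at 0.048. *Cxcl1* was at -0.89 with at most 1 *Cxcl9* and *Cxcl10* UMI, -0.11 with up to 5 C1q UMIs and -0.95 without the hypoxia limit, and *Rsad2* was at -0.61 without a *Cxcl9* and *Cxcl10* limit. No replicate could be left out, and no paired analysis was possible because each genotype has 1 library.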
